A study of Mus musculus with 2 samples.

Results

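Collagens, proteoglycans, matrix glycoproteins and the enzymes that remodel them were followed in the ventral prostate of mice with an ARR2PB-miR32 transgene. The set holds 38 named genes, and its members are the array probes whose RefSeq accession maps to those symbols. A probe was found for 36 of them, 54 probes in all, and 31 were detected among 13903 detected genes. RNA of 6 wild-type mice was pooled, RNA of 6 ARR2PB-miR32 transgenic mice was pooled, and both pools were hybridised together to 2 Agilent whole mouse genome arrays. All mice were of the FVB/N strain (also spelled FBV/N in the labels) and 6 months old. The transgenic pool carried Cy3 on array 1 and Cy5 on array 2. Both samples are labelled as ventral prostate, although the growth description speaks of ventral or dorsolateral lobes. ARR2PB is a composite probasin promoter that acts in prostate epithelium under androgen control, so the transgene is aimed at epithelial cells, while most of the genes described here are made mainly by stromal cells. The miRNA of the transgene is shown with its seed, the bases that pair with targets, in capitals, as RefSeq gives the mouse mature form on GRCm38.p6:

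mmu-miR-32-5p: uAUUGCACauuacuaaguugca

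The stroma of the prostate surrounds the epithelial ducts with smooth muscle, fibroblasts and matrix. Fibroblasts secrete the fibrillar collagens, which are trimmed by procollagen proteinases, crosslinked by lysyl oxidases and spaced by small leucine-rich proteoglycans. Basement membranes of collagen IV, laminin, nidogen and perlecan lie between epithelium and stroma and around smooth muscle and vessels. Matrix metalloproteinases cut these proteins, and their tissue inhibitors, the TIMPs, block them.

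With a single RNA pool per genotype there was 1 replicate of each, so no significance test was made and no difference here has a replicate check. Values are log2 ratios of transgenic over wild type. Means are given with the SD of the 2 technical arrays, which leaves out the spread between mice. Where signals of the pools are said not to overlap, the comparison is over the same 2 technical arrays. The share of all genes without overlap was not computed. A gene was past the 2-fold rule where its mean ratio was at least 2-fold and its ratio at least 1.5-fold the same way on each array. It was past the 1.5-fold rule where the mean was at least 1.5-fold and both arrays had the same sign. This milder rule was added because earlier results of these data showed differences of under 2-fold for these genes. Its counts are therefore not independent of those results. All 11 prostate epithelium markers, among them probasin (Pbsn) and Krt8, were detected. In bulk RNA, fewer cells of a type and less RNA per cell cannot be told apart.

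Most matrix genes were lower in the transgenic pool, by less than 2-fold. The median of the 31 detected members was -0.46, against 0.011 over all detected genes. On both arrays 26 of 31 members (83.9%) were below 0, against 27.3% of all detected genes, and 1 member, Col6a3, was above 0 on both, against 24.6%. The mean was below 0 for 29 of 31 members, against 48.3% of all detected genes. The 1.5-fold rule was passed by 11 members on the lower side (35.5%, against 7.75% of all detected genes) and by 1 on the higher side (3.23%, against 3.39%). The 2-fold rule was passed by 3 on the lower side (9.68%, against 3.53%) and by 0 on the higher side, where the share of all genes was 1.09%. The 3 genes were Lum, Col3a1 and Timp2.

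Detection entered these counts. Of the 31 members, 7 were well above background in the wild-type pool on both arrays but in the transgenic pool on only 1 array, so they were kept through the pool in which they were higher. They were Col5a1, Col5a2, Col6a2, Col15a1, Fn1, Loxl1 and Mmp2. The 24 members detected in both pools had a median of -0.60, with 20 below 0 on both arrays (83.3%, against 23.6% of genes detected in both pools), and 11 past the 1.5-fold rule on the lower side (45.8%, against 5.44%). The 2-fold rule was passed on the lower side by 3 of the 24 (12.5%, against 2.22%) and on the higher side by 0, against 1.05%. Col6a3 was the 1 member past the 1.5-fold rule on the higher side (background 3.31%) and above 0 on both arrays (background 25.4%), and 22 of 24 means were below 0 (background 45.6%). With no filter, the 36 members with a probe had a median of -0.42. The members not detected were Col14a1 (-0.17), Eln (0.09), Tnc (-0.09), Lox (-0.28) and Mmp3 (0.08), whose mean ratios lie near background, and no probe was matched to Col12a1 or Lamc1.

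**Figure D1:**
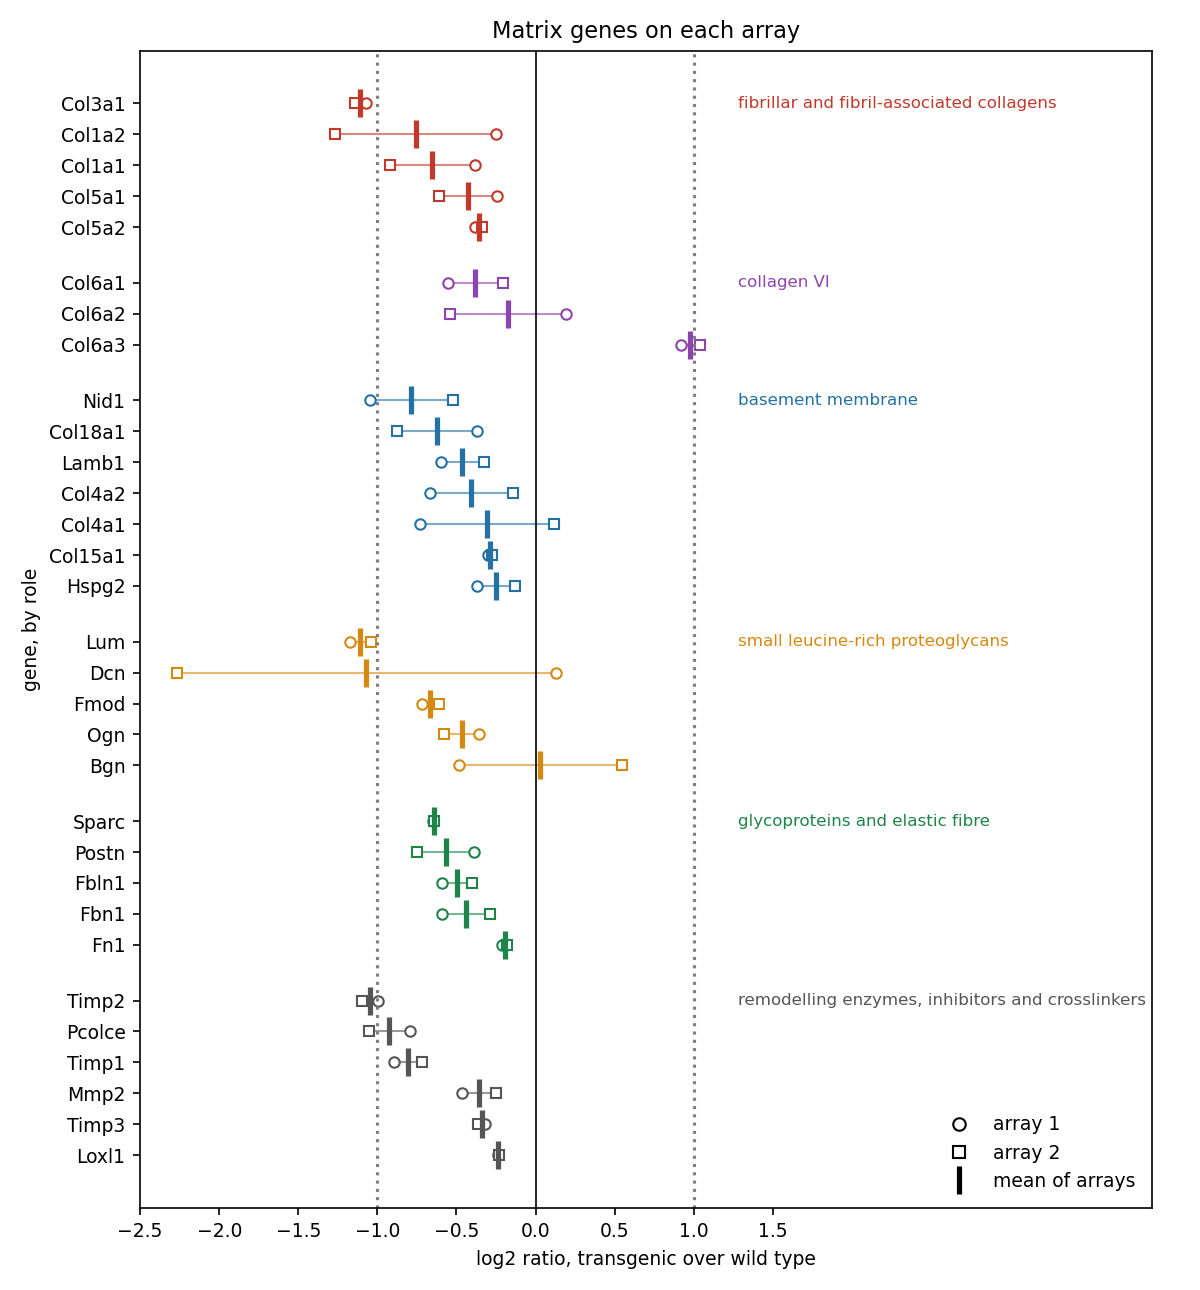
Log2 ratio of transgenic over wild type for the 31 detected matrix genes, grouped by role, with array 1 as circles, array 2 as squares and their mean as a bar. Dotted lines mark 2-fold. The arrays lie close together for Lum, Col3a1 and Timp2, and far apart for Dcn, at 0.13 and -2.27.

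Among the fibrillar collagens, all 5 detected members were below 0 on both arrays, against 27.3% of all detected genes. Without Col5a1 and Col5a2, the 3 detected in both pools were all below 0 on both arrays, against 23.6% of genes so detected. The median of the 5 was -0.65. It was -0.38 on array 1 alone, -0.92 on array 2 alone and -0.43 with the mean of each gene's detected probes. Col3a1 (NM_009930), the single chain of collagen III, the fibre of compliant stroma, had a normalised log2 signal of 10.46 and 10.48 in wild type on arrays 1 and 2 and of 9.39 and 9.33 in the transgenic pool. Its signals did not overlap between the pools, and its ratios of -1.07 and -1.14 gave a mean of -1.11 ± 0.05 (SD, n = 2 arrays), or 2.16-fold lower. Under median centring in place of loess it stood at -0.01 on array 1 and -2.07 on array 2, and the 2-fold call was lost. Its second, dim probe was not detected and gave 0.19.

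The chains of collagen I, the main fibre of connective tissue, differed in size between the arrays. Col1a2 was at 10.42 and 11.10 in wild type and at 10.18 and 9.83 in the transgenic pool. Its pools did not overlap, but array 1 gave -0.25 and array 2 gave -1.27, a mean of -0.76 ± 0.72. Col1a1 was at 8.41 and 8.89 in wild type and at 8.02 and 7.97 in the transgenic pool, again without overlap. Its probe was printed as 10 spots, with a ratio of -0.38 ± 0.44 over the spots of array 1 and -0.92 ± 0.15 over those of array 2, and its mean was -0.65 ± 0.38. A second, dimmer probe of Col1a1 gave -0.01, so the mean of its probes was not past the 1.5-fold rule. The chains of collagen V, a minor fibrillar collagen that nucleates collagen I fibrils, were past neither rule, with Col5a1 at -0.43 ± 0.26 and Col5a2 at -0.36 ± 0.03. A dim, undetected second probe of Col5a1 gave 0.22.

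Collagen VI forms beaded microfibrils from 3 chains, which went different ways. Col6a3, the largest of the chains, had a normalised log2 signal of 9.64 and 9.55 in wild type and of 10.56 and 10.60 in the transgenic pool. The transgenic signal was higher on each array, with ratios of 0.92 and 1.04 and a mean of 0.98 ± 0.09, or 1.97-fold, just short of the 2-fold rule. That closeness of the arrays was not kept under median centring, where Col6a3 lay at 1.99 on array 1 and 0.11 on array 2. The other 2 probes of Col6a3 were not detected and gave 0.49 and 0.13, or 1.65 and -0.41 by Feature Extraction's own ratios. Col6a1 was at 7.97 and 7.80 in wild type and at 7.42 and 7.59 in the transgenic pool, a mean of -0.38 ± 0.24. Col6a2 stood at 0.19 on array 1 and -0.54 on array 2, so its direction was not settled. By those ratios the detected probe of Col6a3 was at 1.11, Col6a1 at -0.47 and Col6a2 at -0.64.

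Basement membrane genes had a median of -0.41 over 7 detected members (-0.60 on array 1 and -0.28 on array 2). On both arrays 6 of the 7 were below 0 (85.7%, against 27.3% of all detected genes). Without Col15a1, 5 of the 6 detected in both pools were below 0 on both arrays (83.3%, against 23.6% of genes so detected). Nid1, which links laminin to collagen IV, was at 9.88 and 9.62 in wild type and at 8.83 and 9.10 in the transgenic pool, without overlap, and its mean was -0.79 ± 0.37. Col18a1, the precursor of endostatin, stood at -0.37 and -0.88, a mean of -0.62 ± 0.36, while its second detected probe gave -0.22. Its 1.5-fold call was lost with the mean of both probes (-0.42), without background subtraction (-0.56), under median centring and on array 1 alone. Lamb1, a laminin chain, was at -0.46 ± 0.19, Col15a1 at -0.29 ± 0.02 (0.15 by an undetected probe) and the perlecan gene Hspg2 at -0.25 ± 0.17. The collagen IV chains Col4a1 and Col4a2, which join in 1 triple helix, lay at -0.73 and 0.11 and at -0.67 and -0.14 on arrays 1 and 2. Neither was past the 1.5-fold rule, at means of -0.31 ± 0.60 and -0.41 ± 0.37.

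**Figure D2:**
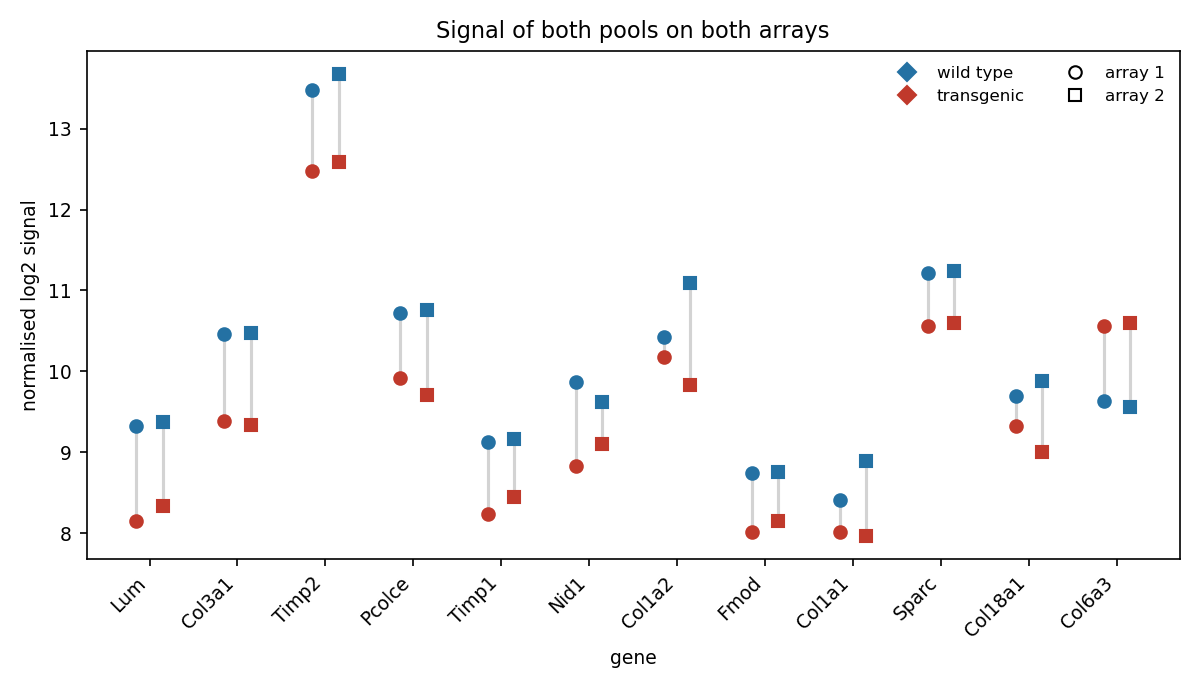
Normalised log2 signal of the 12 genes past the 1.5-fold rule in wild type (blue) and transgenic (red), on array 1 (circles) and array 2 (squares), ordered by mean ratio. The 11 lower genes have the wild-type point on top on each array, and Col6a3 has the transgenic point on top, at 10.56 and 10.60.

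The small leucine-rich proteoglycans bind collagen fibrils and set their diameter. Lum (NM_008524), the gene of lumican, was at 9.32 and 9.38 in wild type and at 8.15 and 8.34 in the transgenic pool. The pools were well apart on both arrays, and the mean of -1.11 ± 0.09, or 2.16-fold lower, was past the 2-fold rule, though not under median centring. Fmod, fibromodulin, stood at 8.74 and 8.76 in wild type and at 8.02 and 8.15 in the transgenic pool, a mean of -0.66 ± 0.08.

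Decorin (Dcn), the brightest probe used for any member at a mean log2 signal of 13.57, was the least settled. Its wild-type signal was 13.36 and 14.85 and its transgenic signal 13.49 and 12.58, so the pools overlapped, with ratios of 0.13 and -2.27. The mean of -1.07 ± 1.69 was past neither rule. Feature Extraction's ratios of the same spots were -0.72 and -1.84. Bgn, biglycan, also had opposite signs, -0.49 and 0.55, and a mean of 0.03 ± 0.73. Ogn, osteoglycin, was at -0.47 ± 0.16.

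Glycoproteins and elastic fibre genes had a median of -0.50, with all 5 detected members below 0 on both arrays, against 27.3% of all detected genes. Without Fn1, the 4 detected in both pools were all below 0 on both arrays, against 23.6% of genes so detected. Sparc, a collagen-binding glycoprotein that aids collagen assembly, was at 11.21 and 11.24 in wild type and at 10.56 and 10.60 in the transgenic pool. Its arrays agreed within 0.004 (SD) around a mean of -0.64, and its second probe gave -0.72. Under median centring its arrays lay at 0.49 and -1.58, and the 1.5-fold call was lost. Postn, periostin, was at -0.57 ± 0.25, Fbln1, a fibulin of elastic fibres, at -0.50 ± 0.13 and the fibrillin gene Fbn1 at -0.44 ± 0.22. Fibronectin (Fn1), printed as 10 spots of which 9 were used on each array, was near its background, at -0.21 ± 0.31 over the spots of array 1 and -0.18 ± 0.17 over those of array 2.

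All 6 detected remodelling genes were below 0 on both arrays, against 27.3% of all detected genes, with a median of -0.58. Without Loxl1 and Mmp2, the 4 detected in both pools were all below 0 on both arrays, against 23.6% of genes so detected. The inhibitor Timp2 (NM_011594), which also takes part in activating pro-MMP2, was at 13.47 and 13.68 in wild type and at 12.48 and 12.58 in the transgenic pool. The pools did not overlap, and the mean was -1.05 ± 0.07, or 2.06-fold lower. On array 1 alone it was just under 2-fold, and under median centring the call was lost. Pcolce, an enhancer of procollagen C-proteinase, was at 10.72 and 10.76 in wild type and at 9.92 and 9.70 in the transgenic pool, a mean of -0.93 ± 0.18. Timp1, an inducible inhibitor, was at 9.13 and 9.16 in wild type and at 8.24 and 8.44 in the transgenic pool, a mean of -0.81 ± 0.12, while its dimmer probe gave -0.43. Timp3, the matrix-bound inhibitor, was at -0.34 ± 0.03. The gelatinase Mmp2 (-0.36 ± 0.15) and the lysyl oxidase-like gene Loxl1 (-0.24 ± 0.005) were past neither rule.

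The roles overlapped in their values. Medians ran from -0.66 for the small proteoglycans, -0.65 for the fibrillar collagens and -0.58 for the remodelling genes to -0.50 for the glycoproteins, -0.41 for the basement membrane and -0.17 for collagen VI. Members of a role share the same pools and arrays, so these medians have no error of their own. The arrays did not rank the roles alike, since 6 of 7 basement membrane genes were lower on array 1 than on array 2, and 4 of 5 fibrillar collagens were lower on array 2.

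**Figure D3:**
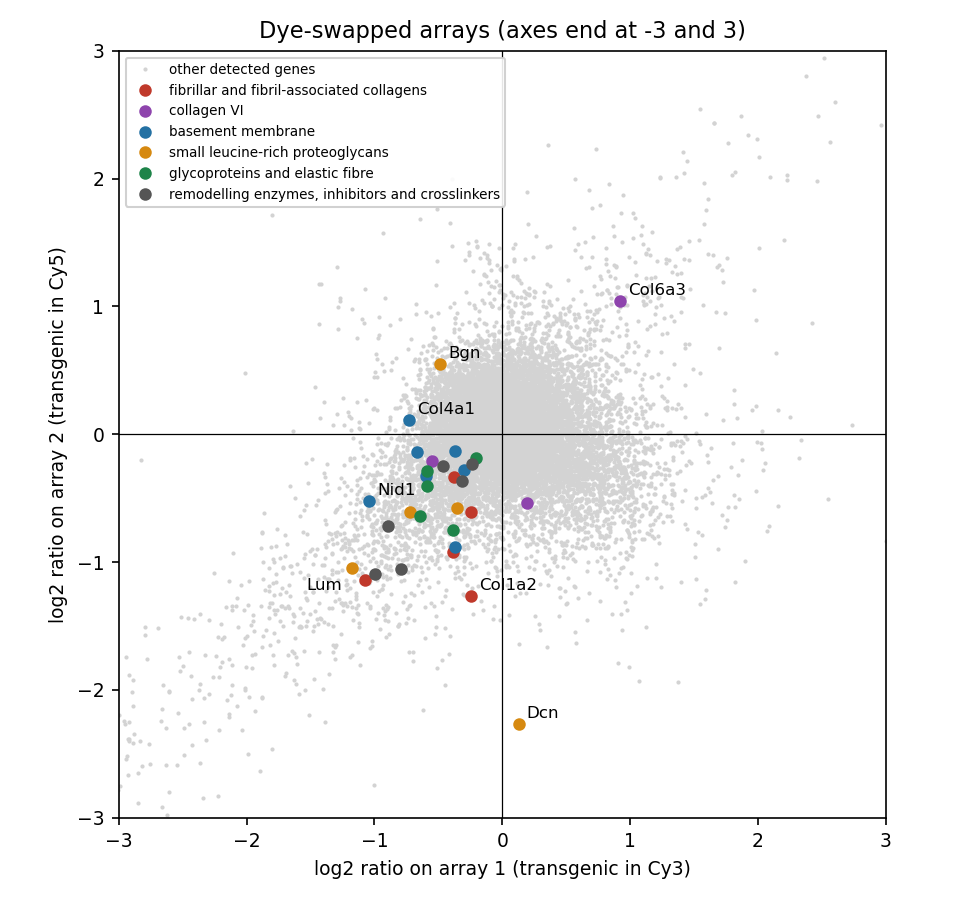
Log2 ratio on array 1 (transgenic in Cy3) against array 2 (transgenic in Cy5) for all detected genes (grey) and the matrix genes coloured by role, with axes that end at -3 and 3. Of 31 matrix genes 26 lie at the lower left, Col6a3 lies in the upper right, and Dcn lies at 0.13 and -2.27.

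Members that lie side by side in the genome, by the order of protein-coding genes in the RefSeq table, had these values. Dcn and Lum are direct neighbours with means of -1.07 and -1.11, and of these only Lum was past a rule. Col3a1 and Col5a2 are direct neighbours at -1.11 and -0.36. Col6a2 and Col6a1 are neighbours at -0.17 and -0.38, while Col6a3 lies apart from them. Col4a1 and Col4a2 are neighbours at -0.31 and -0.41, and their promoter windows share 78 bases, with the genes read from opposite strands.

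RefSeq promoter windows, from 250 bases before to 50 after an annotated start on GRCm38.p6, were found for 26 of the 38 members (31 windows). Windows are shown for Col3a1 and Timp2, which were past the 2-fold rule, for Col1a2 of the same fibres, for the neighbours Col4a1 and Col4a2, and for Col6a3, which was higher. Capitals mark the TATA box letters TATAAA, the CCAAT box letters CCAAT and the GC box letters GGGCGG on either strand, and no such matches overlap motifs of another kind in the windows shown. They lie at chr1:45311288-45311587 (plus strand) for Col3a1, chr11:118355362-118355661 (minus strand) for Timp2, chr6:4505368-4505667 (plus strand) for Col1a2, chr8:11312777-11313076 (minus strand) for Col4a1, chr8:11312555-11312854 (plus strand) for Col4a2 and chr1:90843922-90844221 (minus strand) for Col6a3.
Col3a1: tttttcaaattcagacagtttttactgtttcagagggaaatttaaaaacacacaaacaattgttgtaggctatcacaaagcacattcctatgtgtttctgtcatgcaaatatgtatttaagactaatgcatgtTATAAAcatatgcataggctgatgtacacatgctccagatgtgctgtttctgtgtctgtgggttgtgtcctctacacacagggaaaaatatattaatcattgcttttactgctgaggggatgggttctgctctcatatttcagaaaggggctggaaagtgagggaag
Timp2: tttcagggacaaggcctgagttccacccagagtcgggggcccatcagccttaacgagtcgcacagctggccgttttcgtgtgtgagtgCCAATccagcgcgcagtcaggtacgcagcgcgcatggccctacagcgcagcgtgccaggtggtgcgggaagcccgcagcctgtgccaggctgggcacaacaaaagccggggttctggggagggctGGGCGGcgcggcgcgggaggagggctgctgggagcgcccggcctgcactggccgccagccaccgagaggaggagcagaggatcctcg
Col1a2: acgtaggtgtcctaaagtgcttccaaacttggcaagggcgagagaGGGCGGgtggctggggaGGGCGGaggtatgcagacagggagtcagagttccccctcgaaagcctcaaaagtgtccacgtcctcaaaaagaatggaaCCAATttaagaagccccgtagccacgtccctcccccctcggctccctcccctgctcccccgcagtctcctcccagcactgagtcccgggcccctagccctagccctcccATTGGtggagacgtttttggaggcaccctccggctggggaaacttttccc
Col4a1: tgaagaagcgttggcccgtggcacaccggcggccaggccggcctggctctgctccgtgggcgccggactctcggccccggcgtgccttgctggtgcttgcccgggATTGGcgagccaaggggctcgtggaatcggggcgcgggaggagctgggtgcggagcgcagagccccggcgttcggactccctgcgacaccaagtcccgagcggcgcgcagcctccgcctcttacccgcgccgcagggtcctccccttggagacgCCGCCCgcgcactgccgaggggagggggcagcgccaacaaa
Col4a2: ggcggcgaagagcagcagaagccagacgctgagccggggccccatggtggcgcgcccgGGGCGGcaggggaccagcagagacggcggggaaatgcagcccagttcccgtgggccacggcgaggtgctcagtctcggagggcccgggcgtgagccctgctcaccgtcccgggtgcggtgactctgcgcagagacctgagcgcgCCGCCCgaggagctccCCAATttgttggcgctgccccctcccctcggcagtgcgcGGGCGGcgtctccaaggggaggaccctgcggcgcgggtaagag
Col6a3: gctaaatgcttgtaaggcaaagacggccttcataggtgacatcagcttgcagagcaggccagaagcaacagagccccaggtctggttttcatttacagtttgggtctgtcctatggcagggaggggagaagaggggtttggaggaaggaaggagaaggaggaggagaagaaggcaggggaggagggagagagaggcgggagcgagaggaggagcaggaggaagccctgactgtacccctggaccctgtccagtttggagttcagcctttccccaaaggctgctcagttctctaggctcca

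TATAAA occurred in 6 of 31 member windows (19.4%) and in 13.6% of 32851 windows of all genes. CCAAT occurred in 10 (32.3%) and in 37.4%, and GGGCGG in 19 (61.3%) and in 35.7%. Windows are not independent. Overlapping windows of Tnc hold the same TATAAA and GGGCGG, and those of Col4a1 and Col4a2 share a GGGCGG, each counted per window. Mmp3 and Tnc, with TATAAA, were not detected on the arrays. Median GC content was 59.3% for member windows and 52.7% for all. The Col3a1 window was the poorest in GC of the members, at 37.7%, with a TATAAA and no GGGCGG, while Timp2 at 68.7% had CCAAT and GGGCGG and no TATAAA, and both genes were past the 2-fold rule. Col6a3 had none of these motifs in its window. A match is a description of letters only.

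Genes around the matrix showed smaller medians. Of 41 other matrix genes 23 were detected, with a median of -0.25. Of these, 6 were past the 1.5-fold rule on the lower side (26.1%, against 7.75% of all detected genes). The matrix Gla protein gene Mgp, an inhibitor of calcification, was past the 2-fold rule at -1.08 ± 0.26, and Mfap4, a microfibril protein, was at -0.87 ± 0.01, and the basement membrane proteoglycan agrin (Agrn) at -0.85 ± 0.36. Many of the collagen processing genes modify and fold procollagen in the secretory pathway, although the list also holds proteinases such as Ctsk. The 16 detected genes of this list had a median of -0.14. The 1.5-fold rule was passed by 1 on the lower side (6.25%, against 7.75%) and 1 on the higher side (6.25%, against 3.39%). The lower one, the proteinase Ctsk at -0.59 ± 0.16, cleared background in the transgenic pool on only 1 array. Of the 14 genes detected in both pools, 0 were past the rule on the lower side, against 5.44% of all genes so detected. The COPII coat gene Sec31a, the 1 on the higher side, was at 0.69, and the prolyl isomerase Ppib at 0.98 ± 1.48 had opposite signs on the arrays. The collagen chaperone Serpinh1 was at 0.03 on array 1 and -1.02 on array 2.

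In the transforming growth factor beta list 4 of 16 detected genes were past the 1.5-fold rule, all on the lower side (25%, against 7.75% of all detected genes). The median of the list was -0.30. Tgfbi, a secreted protein induced by the pathway, was past the 2-fold rule at -1.10 ± 0.70, and the connective tissue growth factor gene Ccn2 was 1.99-fold lower, past the 1.5-fold rule only. The growth factor gene Pdgfa was at -0.87 ± 0.04. The ligand Tgfb1 stood at -0.32 ± 0.06 and Tgfb2 at -0.68 ± 0.18. Of 16 detected integrins and matrix receptors, with a median of -0.37, 5 were past the 1.5-fold rule on the lower side (31.2%, against 7.75%). Among them the hyaluronan receptor Cd44 was past the 2-fold rule at -1.09 ± 0.05, the collagen receptor Itga1 was at -0.80 ± 0.80 and Itgb3 at -0.69. Cd44 and Itgb3 cleared background in the transgenic pool on only 1 array. Of the 13 genes detected in both pools, 3 were past the 1.5-fold rule on the lower side (23.1%, against 5.44% of all genes so detected). On that side 0 of the 13 were past the 2-fold rule, against 2.22%. Of 12 detected further proteases and inhibitors 3 were past the 1.5-fold rule on the lower side (25%, against 7.75% of all detected genes). Their list had a median of -0.43 that was -0.16 over the 9 detected in both pools. Matrilysin (Mmp7), a protease of glandular epithelium, was 5.42-fold lower at -2.44 ± 0.92, and the membrane-bound Mmp14 was at -0.93 ± 0.43 and cathepsin B (Ctsb) at -0.71.

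**Figure D4:**
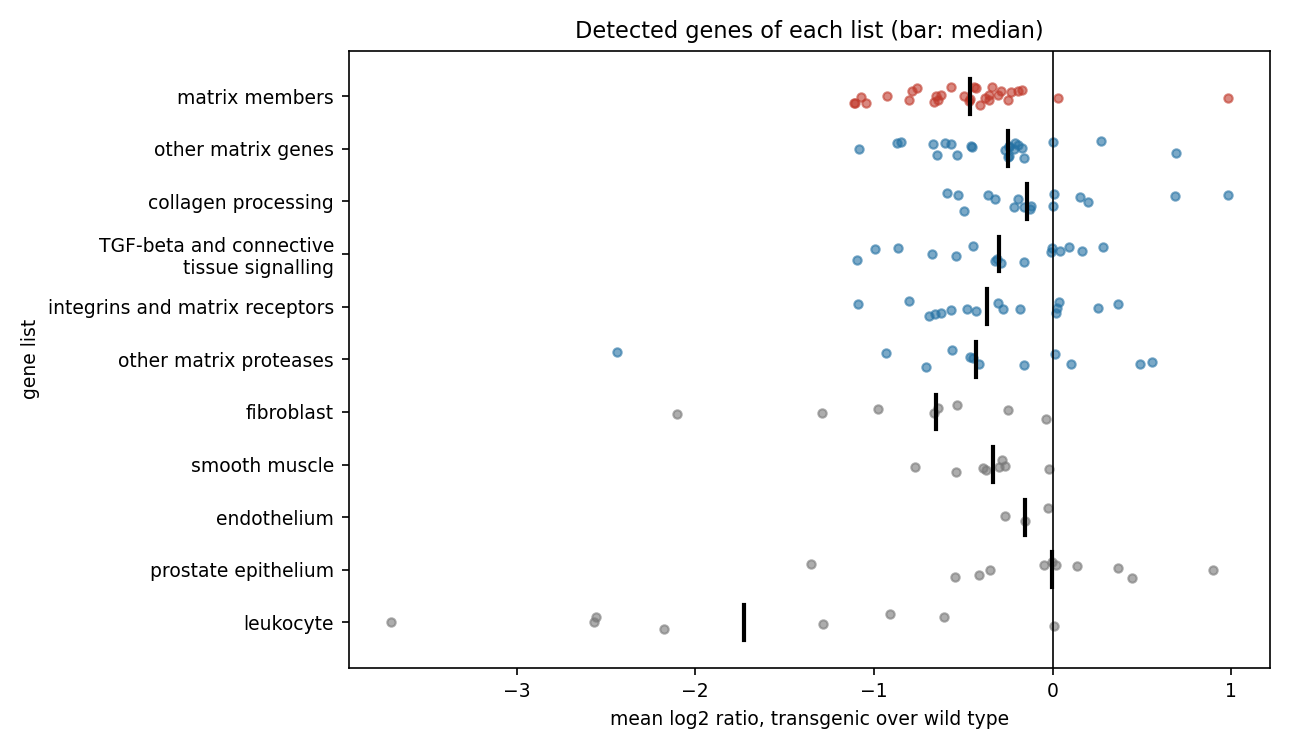
Mean log2 ratio of each detected gene (point) and the median (bar) of the matrix members (red), other lists of matrix biology (blue) and 5 lists of cell type markers (grey). The matrix members centre on -0.46, the fibroblast markers on -0.65, the prostate epithelium on -0.004 and the leukocyte markers on -1.73.

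Markers of fibroblasts and leukocytes were also lower. Of 8 detected fibroblast markers out of 10 (not Gli1 and Mfap5), 5 were past the 1.5-fold rule on the lower side (62.5%, against 7.75% of all detected genes). The 8 had a median of -0.65. Their summed linear signal was 32491 and 34199 in wild type and 18971 and 19109 in the transgenic pool. Thy1 (-2.10 ± 0.83), Vim (-1.29 ± 0.07) and S100a4 (-0.98 ± 0.26) are also made by leukocytes. The fibroblast receptor Pdgfra was at -0.64 ± 0.12 and the mural cell receptor Pdgfrb at -0.04 ± 0.10. Gsn was at -0.67 ± 0.24, Dpt at -0.54 ± 0.07 and Pi16 at -0.25 ± 0.16. The 8 smooth muscle markers had a median of -0.34 and 1 past the 1.5-fold rule on the lower side (12.5%, against 7.75%). Their sum was 29543 and 44602 in wild type and 29977 and 24212 in the transgenic pool. Of 7 endothelial markers 3 were detected, with a median of -0.15, and Pecam1, Cdh5, Kdr and Tek were not detected. The endothelial sum was 549 and 651 in wild type and 527 and 536 in the transgenic pool.

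Of 8 detected leukocyte markers out of 9 (not Itgam), 7 were past the 1.5-fold rule on the lower side (87.5%, against 7.75% of all detected genes). Of these, Ptprc, Cd79a, Ms4a1 and Laptm5 cleared background in the transgenic pool on only 1 array. The 4 markers detected in both pools had a median of -1.54, and 3 were past the rule (75%, against 5.44% of all genes so detected). The leukocyte sums were 9610 and 14106 in wild type and 2364 and 2502 in the transgenic pool. Prostate epithelium markers had a median of -0.004 and sums of 363636 and 280275 in wild type and 183127 and 228090 in the transgenic pool, with Epcam at 0.90 ± 0.11 and the secretory gene Sbp at -1.35 ± 0.55. Of 3 mesothelial markers only Msln was detected, at -4.57 ± 0.35, and 3 of 4 adipocyte markers had a median of 0.10. Sums are led by the brightest probes. The part of these cell types in the matrix values was not tested.

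The 12 members with a mean log2 signal of at least 9 had a median of -0.70, and the 19 dimmer ones had -0.41. With Feature Extraction's own ratios, which differ in both background correction and normalisation, the medians were -0.73 and -0.76. Over all detected genes the medians were 0.03 for 5613 bright and -0.0011 for 8290 dim genes. Technical SDs had a median of 0.17 over the members and of 0.24 over all genes, and 9 of 31 members had an SD above 0.3. Of 7 members with a second detected probe, 7 had means of the same sign by both probes and 6 had a smaller mean ratio by the dimmer one. The dimmer probes of Col1a1 (0.07 and -0.09), Col4a1 (-0.27 and 0.05) and Col18a1 (0.09 and -0.53) had opposite signs on arrays 1 and 2.

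**Figure D5:**
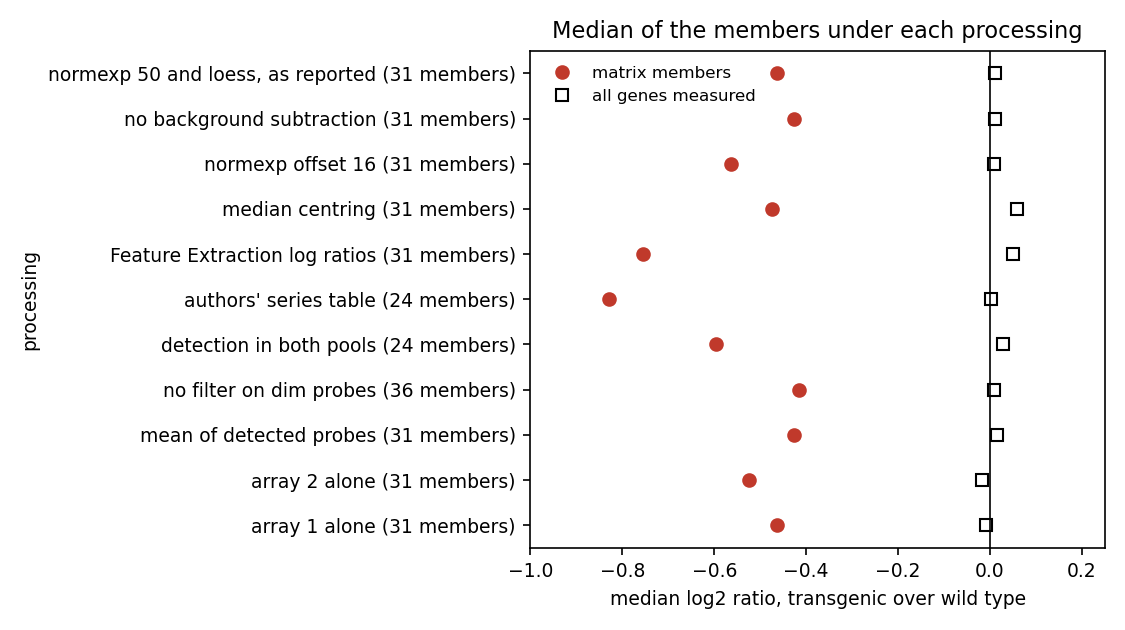
Median log2 ratio of the matrix members (red circles) and of all genes measured (open squares) under each processing of the same arrays. The member median runs from -0.83 in the authors' series table to -0.42 with no filter, and that of all genes stays between -0.02 and 0.06.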

How the data were processed

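Ventral prostate RNA pools were compared on 2 two-colour arrays, a technical dye swap. Per the file headers, Agilent Feature Extraction 11.0.1.1 made the scanner tables. The deposited scanner files give the intensity of each spot and its local background per dye as medians, and intensities processed by Feature Extraction with their log10 ratio of red over green. The deposited series table, read as log2 ratios of transgenic over wild type, correlated with Feature Extraction's turned ratios at r = 1 after rounding on both arrays. How its rows were filtered is not known here.

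With limma 3.58.1 in R 4.3.3, background was corrected by normexp (offset 50) and ratios were normalised by loess within arrays, with control and outlier spots at weight 0. Ratios were turned to transgenic over wild type and averaged. Signals per pool come from loess followed by Aquantile normalisation. Detection required a signal well above background from at least 1 pool, on both arrays. The brightest detected probe stood for a gene. Symbols came from a RefSeq table of GRCm38.p6 by accession (27816 of 41174 probes matched). The files use mm9, so no coordinates of array probes are given. Of 45018 spots, 448 and 299 were outliers and 0 were saturated. The number of arrays limits the technical precision, and with a single pool per genotype the spread between mice was not measured.

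No test was run, since each genotype had 1 replicate. The steps were tested on simulated ratios of more than 2-fold on brighter probes, scored by the 2-fold rule. Smaller differences, dimmer probes and the 1.5-fold rule were not covered. Alternatives were the background correction, normalisation, ratio source, detection, probe rule and single arrays. Every member was named or counted, in detail up to 3 with the largest ratio in each role, those past the 2-fold rule, and those with disagreeing probes or direction. Of other lists, genes past the 2-fold rule and up to 2 more were named, with Ctsk, Serpinh1, Tgfb1 and Tgfb2 chosen after their values were seen. Members, lists and the 1.5-fold rule were chosen with earlier results of these data known.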

Additional observations from a re-analysis of the deposited data

How the results depend on the processing

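No member past the 1.5-fold rule changed the sign of its mean ratio under any of the 10 alternatives. The single arrays did not always keep that sign. With median centring, Col1a2 (0.85), Col18a1 (0.64), Sparc (0.49), Col1a1 (0.37), Pcolce (0.30), Timp2 (0.25) and Fmod (0.09) were above 0 on array 1. On array 2 these genes were below 0. On the lower side, median centring left 0 members past the 2-fold rule and 4 past the 1.5-fold rule, against 3 and 11. Below 0 on both arrays were 10, against 26. The shares of all genes were 2.91%, 6.03% and 9.69%, against 3.53%, 7.75% and 27.3%. The 4 that kept the 1.5-fold call were Col3a1, Lum, Nid1 and Timp1. Feature Extraction's ratios put 5 members past the 2-fold rule and 21 past the 1.5-fold rule on the lower side, where the shares of all genes were 6.75% and 11.7%, against 3.53% and 7.75%. The authors' series table put 8 of its 24 members past the 2-fold rule, with 3.45% of all genes. Those 24 are the members detected in both pools, of which 3 were past that rule as reported. By Feature Extraction, in the series table and with offset 16, 1 member, Col6a3, was past the 2-fold rule on the higher side. Of all genes, 309 of 13903, 150 of 12011 and 193 of 13903 were past it on that side.

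The member median was -0.56 with offset 16, -0.76 by Feature Extraction, -0.83 in the series table against -0.60 for the same 24 members when both pools had to be detected, and -0.42 with no filter. For small proteoglycans it was -0.75 with offset 16, -0.89 with Feature Extraction and -0.96 in the series table. For remodelling genes these were -0.68, -0.96 and -1.03, with -0.87 for detection in both pools, -0.35 with no filter and -0.49 with the mean of probes. Glycoproteins were at -0.73 with Feature Extraction and -0.87 in the series table. Collagen VI was at -0.47 with Feature Extraction, and reversed to 0.25 in the series table and to 0.30 when both pools had to be detected, where Col6a2 drops out.

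On array 2 or array 1 alone, 6 and 3 members were past the 2-fold rule on the lower side and 1 and 0 on the higher side. Of all genes, 4.24% and 4.31% were past it on the lower side, and 271 and 450 of 13903 on the higher side. The 1.5-fold call was lost by Nid1 on array 2 and by Col1a1, Col1a2 and Col18a1 on array 1. The member median was -0.52 and -0.46, that of fibrillar collagens -0.92 and -0.38, of basement membrane genes -0.28 and -0.60, that of collagen VI -0.21 and 0.19, and that of small proteoglycans -0.61 and -0.49. Col4a1 changed sign on array 2, and Bgn, Col6a2 and Dcn on array 1. No paired analysis was possible because each genotype had 1 RNA pool. The causes of these shifts were not tested. For 7 members the transgenic signal was near background, which limits how well their ratios are known.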
